A study of Homo sapiens with 4 samples.

Results

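Interferon-stimulated genes were read in the mouse host cells around human MCF10DCIS.com lesions. The members are 39 listed mouse genes, of the 32285 mouse genes measured. A row was matched by symbol for 38 of them, and Mx1 was not analysed here. Levels were read in barcodes with at least 90% of their gene UMIs (unique molecular identifiers, each marking 1 captured transcript) on mouse genes. No cut on measured values chose the members, but they were listed with earlier results of these data known.

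MCF10DCIS.com is a human breast cell line that forms lesions like ductal carcinoma in situ in mice. It was seeded on decellularised mammary matrix (dECM) from young (2 to 3 months) or aged (18 months or more) mice, grown there for 12 days and implanted in the mammary fat pads of Rag1-/- mice. Tumour and adjacent stroma were taken after 4 weeks. Rag1-/- recipients lack mature T and B cells, and they, the cell line and the times were the same for both groups, which differ in the age of the scaffold. Young and aged scaffolds went into opposite fat pads of the same mice according to the design, but the number of animals in each pool is not resolved by the labels. Each pool is 1 gene expression library, so no spread between animals could be had, no test was run, and all intervals cover counting error only.

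Interferons are secreted antiviral cytokines. Type I interferons bind a receptor of the chains Ifnar1 and Ifnar2, and interferon gamma binds Ifngr1 and Ifngr2. The receptors signal through kinases to transcription factors, STAT2 and IRF9 among them for type I interferons, which switch on a set of target genes. These targets sense or disable foreign RNA, modify proteins, and restrict microbes at membranes. Neutrophils with high levels of such genes are a known state in mouse tumours and infection.

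The young pool gave 11946 mouse cells with a median of 2285.5 UMIs, and the aged pool 12924 with a median of 2261. The libraries shared 190 barcodes, 143 of them among the mouse cells of each pool. Classes were named from marker genes after clustering without the members and without other interferon-stimulated genes. Neutrophil-like cells were 79.9 and 76.5% of the young and aged pools (9549 and 9884 cells). There were 714 and 1127 fibroblast-like, 583 and 714 monocyte-like, 565 and 589 macrophage-like, 142 and 247 NK cell-like and 131 and 145 endothelial-like cells. The monocyte-like cells were 1 cluster whose leading genes include class II antigen presentation genes beside Ccr2. The 102 and 61 luminal epithelium-like and 31 and 29 dendritic cell-like cells were too few for the comparison of pools. In neutrophil-like cells the 7 T cell markers summed to 17.1 and 18.1 CPM (UMIs scaled in the usual way to the total mouse gene UMIs of the class), against 189766 and 180695 CPM for the 12 neutrophil markers.

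Members were a larger part of the RNA in monocyte-like than in neutrophil-like cells. In monocyte-like cells the 38 members summed to 3727 CPM in the young pool (95% Poisson interval 3672 to 3783) and 3218 CPM in the aged pool (3172 to 3266). In neutrophil-like cells they summed to 2252 and 2631 CPM. Endothelial-like cells had 1875 and 1914 CPM, fibroblast-like cells 1490 and 1699 CPM, macrophage-like cells 1444 and 1491 CPM and NK cell-like cells 1234 and 1042 CPM. This order of the 6 classes was the same in both pools, and the counting intervals of neighbours in it did not overlap. The few dendritic cell-like cells had 3433 and 2473 CPM.

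RNA from outside a cell adds to these levels. Mouse UMIs in human barcodes, a median of 215.5 and 234 per barcode, held the members at 1949 and 1929 CPM. The neutrophil alarmin gene S100a9 stood at 3.54 to 9.01% of its outside level in the other compared classes, an upper limit on the share of such RNA, since any S100a9 of their own adds to it. At those shares no member of 38 in monocyte-like cells lay within 2-fold of the outside level, and 1 to 4 did in each pool of the other classes. Slfn4 was among them in fibroblast-like, macrophage-like and NK cell-like cells of both pools.

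**Figure D1:**
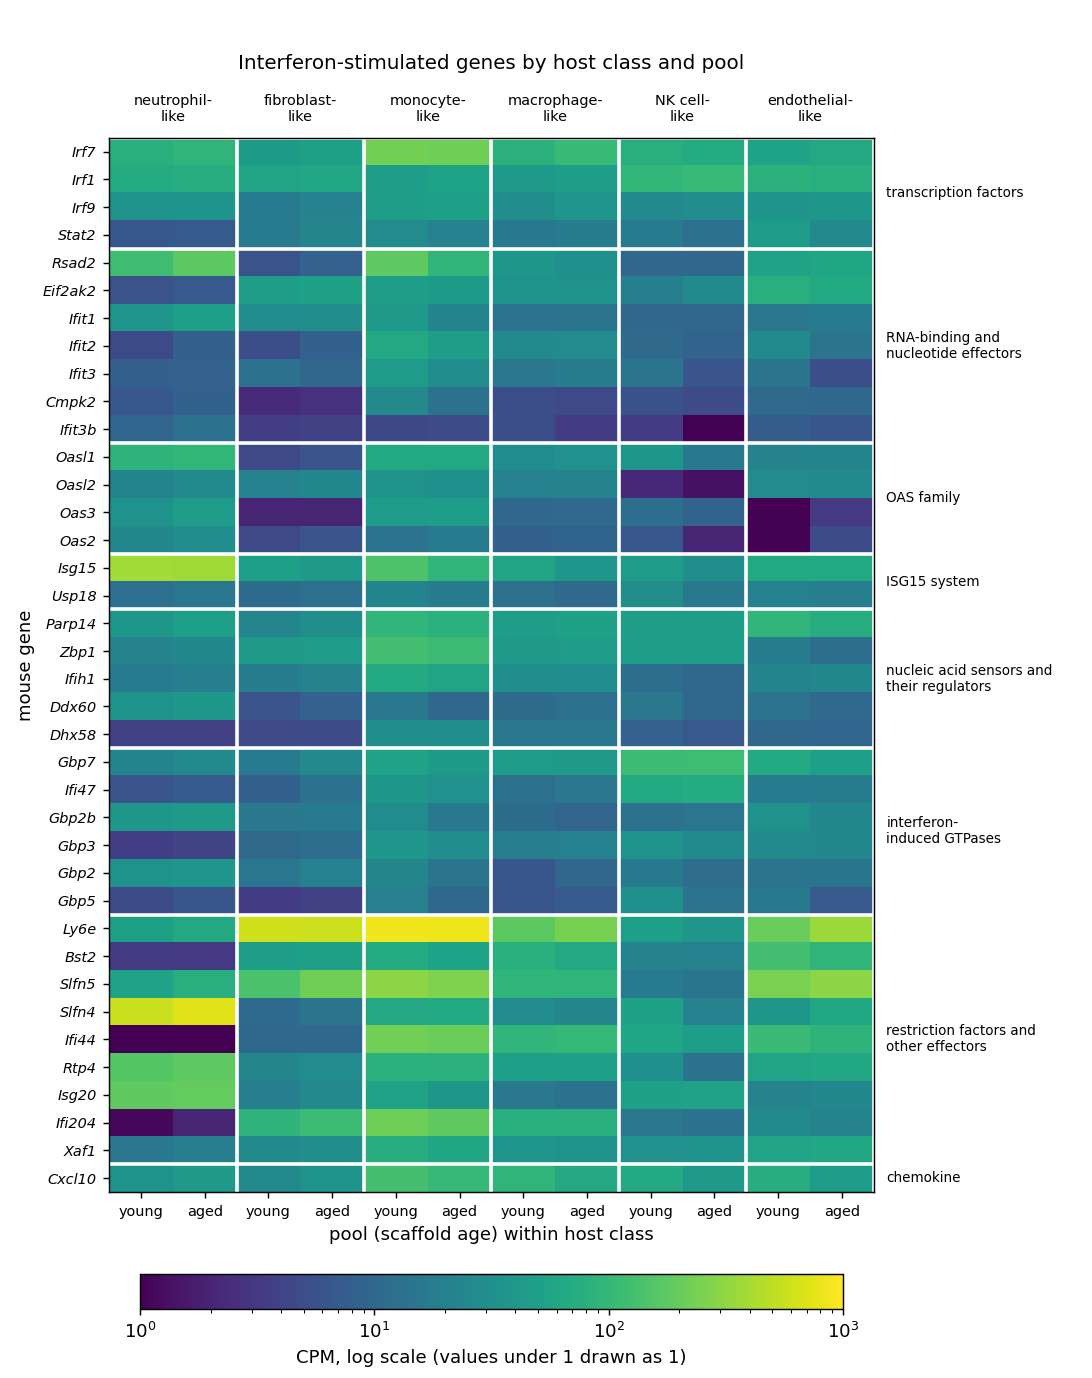
Level of each member (CPM, colour on a log scale, 1 row per gene, grouped by role) in 6 host classes of the young and aged pools. Slfn4, Isg15, Isg20 and Rtp4 are highest in neutrophil-like cells, Ly6e is high in monocyte-like and fibroblast-like cells, and Ifi44, Ifi204 and Bst2 are low in neutrophil-like cells.

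The class in which a member was highest was the same in both pools for 32 of the 38. Of these, 15 were highest in monocyte-like, 10 in neutrophil-like, 4 in NK cell-like and 3 in endothelial-like cells. No member was highest in fibroblast-like or macrophage-like cells. The other 6 changed class between pools, and they were Rsad2, Ifit1, Usp18, Parp14, Slfn5 and Xaf1. No such spread over all mouse genes is given beside these counts, so they describe the members only. The libraries count 1 end of each transcript, so CPM were compared between genes without division by length.

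Among the 4 transcription factors, Irf7, the master regulator of type I interferon genes, was highest in monocyte-like cells at 238 and 216 CPM in the young and aged pools. It had 83.7 and 108 CPM in macrophage-like and 80.5 and 92.8 CPM in neutrophil-like cells, so these classes lay close together. Irf1, which also answers to interferon gamma, was highest in NK cell-like cells with 96.5 and 106 CPM and had 70.9 and 74.2 CPM in neutrophil-like cells. Irf9 stayed within 17.6 to 48.8 CPM over the 6 classes. Stat2 was the least abundant of the 4 in neutrophil-like cells, at 6.69 and 7.08 CPM.

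The RNA-binding and nucleotide effectors were split between classes. Rsad2, which encodes viperin, an enzyme that makes a chain-terminating nucleotide, had 121 and 177 CPM in neutrophil-like and 181 and 92.5 CPM in monocyte-like cells. Its highest class was thus monocyte-like in the young and neutrophil-like in the aged pool. Ifit1, whose protein binds foreign RNA ends, had 36.5 and 49.6 CPM in neutrophil-like and 41.4 and 22.6 CPM in monocyte-like cells, with the same switch. Ifit2 and Ifit3 were sparse in neutrophil-like cells (4.67 to 8.69 CPM over both genes and pools) and highest in monocyte-like cells (29.9 to 65.4 CPM). Eif2ak2, the double-stranded RNA kinase PKR, was highest in endothelial-like cells at 76.9 and 66.9 CPM and had 5.83 and 6.90 CPM in neutrophil-like cells. Ifit3 and Ifit3b, and Gbp2 and Gbp2b, are close copies, and the Ifi200 family of Ifi204 holds similar genes. Reads shared by such genes could have been lost or misplaced in the counting, so the values of these 5 are uncertain.

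The OAS family (2'-5' oligoadenylate synthetases and relatives) leaned towards neutrophil-like and monocyte-like cells. Oasl1, which restrains translation of Irf7, was the most abundant of them, with 89.1 and 97.3 CPM in neutrophil-like and 66.1 and 65.7 CPM in monocyte-like cells. Oas3 had 34.0 and 44.6 CPM in the former and 45.5 and 48.3 CPM in the latter, and 2.05 and 2.07 CPM in fibroblast-like cells.

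Isg15, the ubiquitin-like modifier, had 385 and 374 CPM in neutrophil-like cells, second only to Slfn4 there. In monocyte-like cells it had 146 and 94.6 CPM, and in the other classes 31.0 to 67.1 CPM. Usp18, which removes ISG15 from proteins and damps the type I receptor, lay within 10.8 to 30.7 CPM over the 6 classes.

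Nucleic acid sensors and their regulators were mostly highest in monocyte-like cells. Zbp1, a sensor of Z-form nucleic acid that can trigger necroptosis, had 128 and 113 CPM there against 21.9 and 25.2 CPM in neutrophil-like cells. Ifih1, the RNA sensor MDA5, had 67.8 and 57.2 CPM against 17.0 and 19.6 CPM. Ddx60 was highest instead in neutrophil-like cells, with 33.5 and 39.97 CPM.

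The interferon-induced GTPases, which attack membranes around intracellular microbes and are classical targets of interferon gamma, included 3 of the 4 members highest in NK cell-like cells. Gbp7 had 115 and 118 CPM in NK cell-like and 22.7 and 27.1 CPM in neutrophil-like cells. Ifi47 had 66.9 and 72.4 CPM in the former and 6.22 and 7.25 CPM in the latter. Gbp2 and Gbp2b were instead highest in neutrophil-like cells, at 33.6 and 36.2 CPM and 38.4 and 40.6 CPM.

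Restriction factors held the most uneven members. Slfn4, a Schlafen gene of myeloid cells, had 569 and 716 CPM in neutrophil-like cells, 9.71 times the next highest class by the mean of both pools. Ifi44 lay at the other end, with 0.557 and 0.961 CPM in neutrophil-like and 230.4 and 213 CPM in monocyte-like cells. Ifi204, a p200 family gene, had 1.16 and 2.05 CPM against 218 and 185 CPM. Both are interferon targets that neutrophil-like cells of these pools nearly lacked. Bst2, which encodes the virus-tethering protein tetherin, had 3.43 and 3.19 CPM in neutrophil-like cells and was highest of the 6 classes in endothelial-like cells at 127 and 92.8 CPM. In the few dendritic cell-like cells, whose leading genes include the plasmacytoid gene Siglech, it had 1247 and 873 CPM.

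Ly6e, a membrane protein that hinders entry of some viruses, was the most abundant member in monocyte-like cells at 869.8 and 839.9 CPM, in fibroblast-like cells at 599 and 594 CPM and in macrophage-like cells at 178 and 243 CPM. It had 209 and 358 CPM in endothelial-like and 50.3 and 65.9 CPM in neutrophil-like cells. Slfn5, a Schlafen gene that is not limited to myeloid cells, had 298 and 263 CPM in monocyte-like and 250.3 and 302 CPM in endothelial-like cells. Isg20, an exonuclease gene, and Rtp4, a gene of a receptor chaperone, were highest in neutrophil-like cells, at 186 and 194 CPM and 162 and 182 CPM. In macrophage-like cells Ifi44 had 95.6 and 99.0 CPM. Cxcl10, the chemokine that draws CXCR3-bearing lymphocytes, was highest in monocyte-like cells at 130.4 and 103 CPM and had 92.6 and 65.0 CPM in macrophage-like cells.

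The pools were then compared within each class, by a rule of size in place of a test. A gene entered when its 2 pools together held 100 UMIs or more and the larger of its levels was no less than 20 CPM. It was counted when the pools differed by 1.5-fold or more.

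In neutrophil-like cells most measured members were slightly higher in the aged pool and none reached 1.5-fold. Of 22 members measured, 0 were counted as higher, where 0.522% of all 3258 measured genes were, and 0 as lower, where 0.0614% were. The median log2 ratio of these members was 0.26, beside 0.05 over all measured genes, and the other 16 members were under the minimum. A log2 ratio above 0 was found for 21 of the 22, with Isg15 below 0, and for 65.6% of all measured genes. With TMM scaling, which shifts every ratio of this class down by 0.11, 17 stayed above 0, and Irf1, Gbp2, Gbp2b and Isg20 joined Isg15 below it.

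Rsad2 was nearest to the fold, with 121 and 177 CPM (1.46-fold higher, 1.39 to 1.53). Slfn5 had 53.9 and 75.6 CPM (1.40-fold, 1.30 to 1.51) and Ifit1 36.5 and 49.6 CPM (1.36-fold, 1.24 to 1.49). Isg15 had the lowest ratio (0.971-fold, 0.942 to 0.9999). The aged to young ratio of Rsad2 varied among the 10 neutrophil-like clusters, from 0.840-fold in cluster 6, led by the cytokine genes Il23a and Tnf, to 2.36-fold in cluster 7, led by the heat-shock genes Hspa1a and Hspa1b. In cluster 3, led by the granule genes Ngp, Camp and Ltf of immature neutrophils, it was 1.01-fold (0.887 to 1.15). The median log2 ratio of the measured members lay above 0 in 9 of the 10 clusters, and was -0.09 in cluster 1, led by Gbe1. That of all measured genes lay above 0 in all 10, at 0.01 to 0.06. The clusters' shares of the class differed too, with cluster 1 at 14.5 and 10.5% and cluster 4, led by Fgl2 and Itga4, at 10.5 and 13.4%. Their part in the ratios of the whole class was not tested.

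In monocyte-like cells the measured members lay the other way. Of 35 measured, 8 were lower in the aged pool by 1.5-fold or more, where 0.583% of 5144 measured genes were, and none was higher, where 0.505% were. The median log2 ratio was -0.25 beside 0.01 for all measured genes, and 30 of 35 lay below 0, while 52.6% of all measured genes lay above it. The minimum was met only in the young pool by Cmpk2, Gbp5, Gbp2b and Gbp2, which are among the 8. With the minimum set on the mean of both pools, 5 of 32 members were lower, where 0.403% of measured genes were, and Cmpk2, Gbp5 and Gbp2 were no longer measured. Of 112 other interferon-stimulated genes 72 were measured in this class, with a median of -0.10, and of these Ly6a and Ccl7 were lower and none higher. Of the members, Irf9, Irf1, Oas3, Slfn4 and Rtp4 lay above 0, with each of 3 scalings.

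Of the 8, 4 are RNA-binding and nucleotide effectors, from 6 of that group measured. Cmpk2 among them met the minimum in the young pool only. Rsad2 had 181 and 92.5 CPM (1.95-fold lower, 1.75 to 2.18), and Cmpk2, a nucleotide kinase gene next to it in the genome, 25.7 and 13.4 CPM (1.93-fold lower, 1.43 to 2.61). Ifit1 had 41.4 and 22.6 CPM (1.83-fold lower) and Ifit3 46.1 and 29.9 CPM (1.54-fold lower). Isg15 had 146 and 94.6 CPM (1.55-fold lower, 1.38 to 1.74).

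The other 3 are guanylate-binding GTPases, from 6 GTPases measured, and all 3 met the minimum of 20 CPM in the young pool only. Gbp5, which promotes inflammasome assembly, had 20.4 and 10.2 CPM (2.01-fold lower, 1.43 to 2.84), Gbp2b 27.9 and 16.2 CPM (1.72-fold lower) and Gbp2 23.0 and 14.3 CPM (1.61-fold lower). These sums rest on few cells. Rsad2 was detected in 67 and 71 monocyte-like cells of the pools, and the top cell held 14.8 and 13.1% of its UMIs. Without the top cell of each gene and pool, Rsad2 kept a log2 ratio of -0.94, and Ifit3 and Isg15 no longer reached 1.5-fold. Over cells with 1 hashing tag, 3 members were lower.

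**Figure D2:**
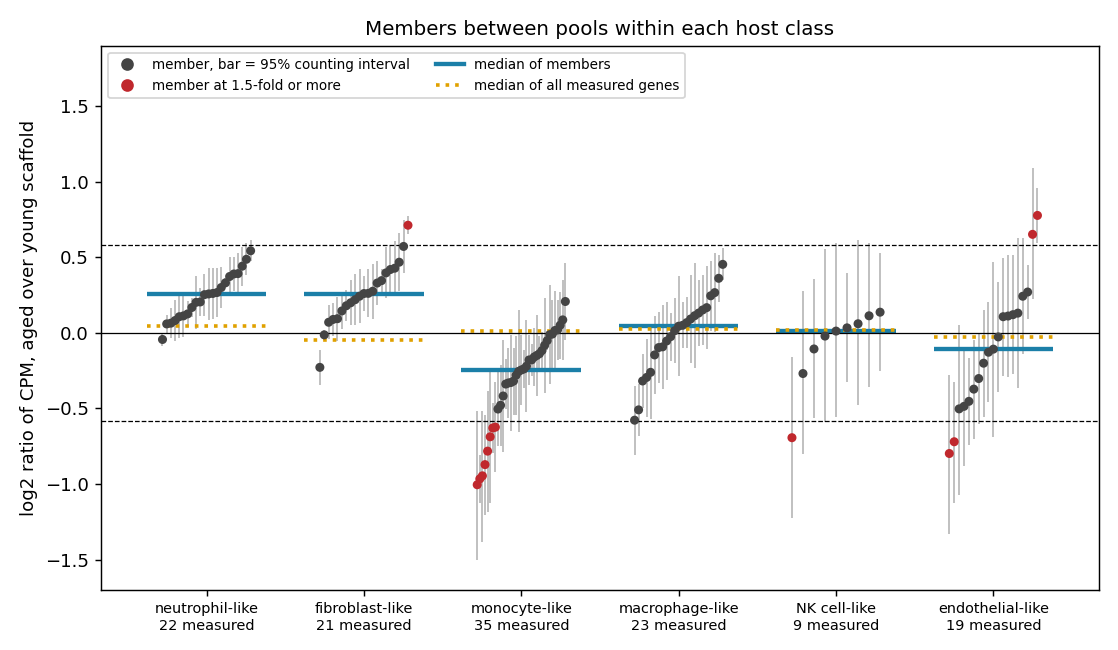
Log2 ratio of CPM, aged over young scaffold, for each measured member (points, with 95% counting intervals) in 6 host classes, ordered by value within a class. Red points reach 1.5-fold (dashed lines), blue bars are the members' medians (0.26 in neutrophil-like, -0.25 in monocyte-like cells) and dotted bars the medians of all measured genes.

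In macrophage-like cells none of 23 measured members reached 1.5-fold, where 0.489% of measured genes were higher and 0.616% lower. The median was 0.04 beside 0.03 for all measured genes. Isg15 lay just under the fold, with 56.0 and 37.5 CPM.

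**Figure D3:**
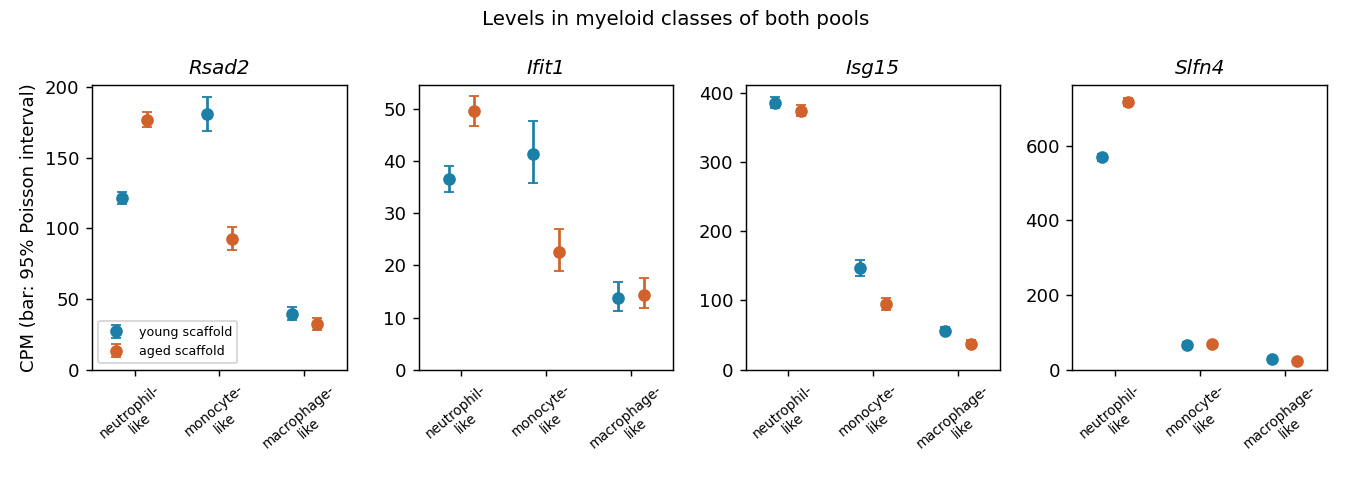
CPM of 4 members (1 panel each, axis from 0) in neutrophil-like, monocyte-like and macrophage-like cells of the young and aged pools, with 95% Poisson intervals. Rsad2 and Ifit1 are higher in the aged pool in neutrophil-like cells and lower in monocyte-like cells, Isg15 is lower in the aged pool in monocyte-like and macrophage-like cells, and Slfn4 is far higher in neutrophil-like cells than in the others.

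In fibroblast-like cells Slfn5 was the 1 member of 21 measured past the fold, where 2.74% of measured genes were higher and 1.01% lower. It had 138 and 227 CPM (1.64-fold higher, 1.57 to 1.71). The pools differ in the clusters that make up this class. Cluster 12, led by Ogn and Sfrp4 with Dpt and Pi16 (genes of progenitor-like fibroblasts), was 40.8% of the class in the young and 54.0% in the aged pool. Within it Slfn5 had 532 and 533 CPM (1.002-fold, 0.959 to 1.05). Within cluster 13, led by Mmp10 and with Grem1 among its leading genes, it had 13.7 and 23.3 CPM (1.70-fold, 1.42 to 2.03). Within cluster 17 it had 43.8 and 37.1 CPM. That cluster, led by Rgs5 with cell cycle genes, met 8 pericyte or smooth muscle markers beside 10 of 11 fibroblast markers.

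In the sum of all members, fibroblast clusters 12 and 13 differed by more than the pools did. All members summed to 2921 and 2662 CPM in cluster 12 and to 1041 and 1078 CPM in cluster 13. Irf7 had 133 and 101 CPM in cluster 12 and 13.2 and 17.3 CPM in cluster 13. Ifi204 had 199 and 193 against 51.5 and 58.6 CPM. Ly6e, the most abundant member of the class, differed less, at 746 and 712 against 555 and 529.8 CPM. The median log2 ratio between pools was -0.08 over 27 measured members in cluster 12 and 0.16 over 11 in cluster 13, with -0.07 and -0.01 over all measured genes. In cluster 17 it was -0.14 over 10 members beside -0.03, and the whole class had 0.26 beside -0.04 for all measured genes. Isg15 had 93.5 and 51.3 CPM in cluster 12 (0.548-fold, 0.486 to 0.618) and 37.2 and 35.9 CPM in cluster 13. Rsad2, within 2-fold of the outside level in this class of the young pool, went against the sum. It had 6.43 and 12.5 CPM in cluster 12 and 6.38 and 7.57 CPM in cluster 13.

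In NK cell-like cells Cxcl10 was lower in the aged pool (68.0 and 42.1 CPM, 1.62-fold lower, 1.12 to 2.34), where 2.12% of measured genes were lower and 2.21% higher. Only 9 members were measured there, and the top cell held 41.9 and 34.4% of the Cxcl10 UMIs of the pools. In endothelial-like cells 2 members were higher and 2 lower of 19 measured, where 3.31% of measured genes were higher and 1.96% lower. Ly6e had 209 and 358 CPM (1.71-fold higher, 1.51 to 1.94) and Slfn4 39.2 and 61.7 CPM (1.57-fold higher), the latter within 2-fold of the outside level in the aged pool. Stat2 had 44.9 and 25.8 CPM (1.74-fold lower) and Cxcl10 73.8 and 44.8 CPM (1.65-fold lower), with the top cell holding 51.7 and 74.1% of the Cxcl10 UMIs. The purity of this class differed between pools. Its 11 fibroblast markers summed to 35.1 and 1153 CPM in the young and aged pools. Clustering with all genes kept left 124 and 121 endothelial-like cells and made a mast cell or basophil-like cluster of 6 and 24 cells. The part of such cells in these ratios was not tested.

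An interferon state was defined in single cells from 15 core members, 14 of them matched, namely Rsad2, Cmpk2, Ifit1, Ifit2, Ifit3, Ifit3b, Isg15, Usp18, Oasl1, Oasl2, Oas3, Ifi44, Irf7 and Cxcl10. Each cell was thinned to 1000 UMIs, and a cell was in the state with a UMI of at least 3 core genes. Thinning left out 398 and 485 neutrophil-like cells of the young and aged pools, which had fewer UMIs than that.

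Monocyte-like cells had the highest share in the state of the 6 classes. It held 61 of 578 cells (10.55%, 8.17 to 13.3%) in the young and 53 of 701 cells (7.56%, 5.71 to 9.77%) in the aged pool, with exact binomial intervals. In neutrophil-like cells it held 359 of 9151 cells (3.92%, 3.53 to 4.34%) and 479 of 9399 cells (5.10%, 4.66 to 5.56%). The intervals of the pools did not overlap in neutrophil-like cells and overlapped in monocyte-like cells. Within each of the 10 neutrophil-like clusters, which hold fewer cells, the intervals of the pools overlapped. The clusters' shares of the class also differed between pools. Over the cells of the most common single hashing tag of each pool, the intervals of neutrophil-like cells overlapped, at 4.42% (3.92 to 4.96%) and 5.18% (4.61 to 5.79%). Over all cells with 1 tag the aged share was 0.73 percentage points above the young, against 1.17 over all thinned cells. Without thinning the shares were 9.75 and 11.3% in neutrophil-like and 43.6 and 41.2% in monocyte-like cells, whose median depths were 2036 and 1963 UMIs and 7572 and 7611.5 UMIs.

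Macrophage-like cells had 4.12 and 5.56% in the state, endothelial-like cells 3.82 and 4.26%, NK cell-like cells 2.86 and 1.63% and fibroblast-like cells 1.83 and 1.60%, with overlapping intervals between pools in each. No dendritic cell-like cell was in the state, of 31 and 29, which by a limit of 3 cells allows a share of up to 9.68 and 10.3% (exact binomial upper bounds 11.2 and 11.9%). Of all cells in the state 77.0 and 80.8% were neutrophil-like and 13.1 and 8.94% monocyte-like.

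No gap set the state apart from other neutrophil-like cells. Of the thinned cells 588 and 682 had 2 core genes, 179 and 251 had 3, 86 and 107 had 4 and 47 and 76 had 6 or more. No core UMI was found in 64.9 and 63.0% of them. Core UMIs were concentrated, since the 10% of cells with the most held 64.6 and 65.6% of them. Core genes summed to 9089 and 9186 CPM in the state and 531 and 553 CPM outside it, a contrast that the definition itself makes.

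**Figure D4:**
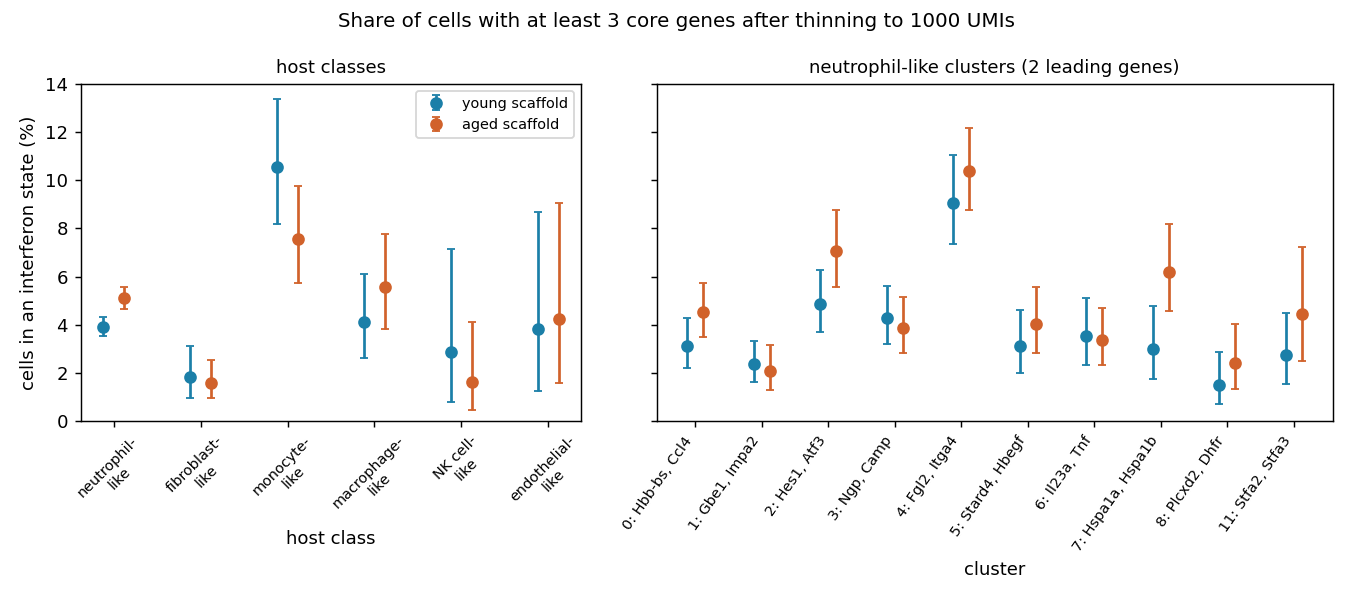
Share of thinned cells (%) with at least 3 core genes, with exact binomial 95% intervals, in 6 host classes (left) and in 10 neutrophil-like clusters named by number and 2 leading genes (right), for the young and aged pools. Monocyte-like cells have the highest share among classes, and cluster 4 (Fgl2, Itga4) the highest among neutrophil-like clusters in both pools.

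Neutrophil-like clusters, made without interferon-stimulated genes, spanned 1.51 to 9.06% in the young and 2.08 to 10.37% in the aged pool. Cluster 4, led by Fgl2, Itga4 and Tnfaip2, was highest with 9.06% (7.34 to 11.03%) and 10.37% (8.76 to 12.2%). Cluster 2, led by Hes1 and the stress-response genes Atf3 and Osgin1, had 4.87 and 7.04%. The heat-shock cluster 7 had 3.00 and 6.19% and the immature cluster 3 had 4.29 and 3.87%. Mature and immature neutrophils both held cells in the state. The Il23a and Tnf cluster 6 had 3.54 and 3.38%. The lowest shares were in cluster 1, led by Gbe1 with the hypoxia genes Ndrg1 and Fam162a among its leading genes, at 2.37 and 2.08%, and in cluster 8, led by Plcxd2, at 1.51 and 2.41%. The interval of cluster 4 lay above those of the other 9 clusters in both pools, in the aged pool only just above that of cluster 2. The shares of the 10 clusters in the 2 pools had a Pearson r of 0.89, over clusters that both pools helped to define. The aged share was the higher in 7 of the 10.

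The members' summed levels were likewise highest in cluster 4, at 3865 and 4198 CPM, against 1319 and 1783 CPM in cluster 8. Isg15 had 738 and 611 CPM in cluster 4 and 182 and 190.2 CPM in cluster 8. Rsad2 had 236 and 334 CPM in cluster 4 and 86.8 and 199 CPM in cluster 8. Slfn4 was instead highest in cluster 2, at 852 and 1144 CPM.

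When all genes were kept in the clustering, 1 neutrophil-like cluster was led by members, with Rsad2, Ifit1, Slfn4, Ifit3b, Usp18 and Isg15 among its 10 leading genes. It held 419 cells of the young and 583 of the aged pool, 4.39% (3.99 to 4.82%) and 5.90% (5.44 to 6.38%) of neutrophil-like cells. The members' own levels shaped this cluster, so its shares are a description. Of its thinned cells 60.4 and 59.4% were in the state, and it held 68.0 and 70.6% of the neutrophil-like cells in the state. It drew on all 10 clusters made without these genes, with 29.7% of its cells from cluster 4 and 17.5% from cluster 2.

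The 24 matched members outside the core did not pick the cells. Their levels were taken over all UMIs of the same cells. So that no gene entered through the state cells alone, the minimum of 20 CPM was set on the level over all thinned cells of the class, a choice made after seeing the data. In neutrophil-like cells 14 of the 24 passed it in each pool, and 13 of these were at least 2-fold higher in the state in both pools. Of all genes that passed, 2.07 and 2.15% were at least 2-fold higher, the core genes included. The 6 members that reached 20 CPM in the state cells alone are not counted. Irf1 was the measured member that fell short, at 122 against 68.3 CPM in the young and 105 against 72.7 CPM in the aged pool.

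Slfn4, the most abundant of them, had 1974 CPM in the state and 505 CPM outside it in the young pool, and 2552 and 616 CPM in the aged pool (3.91-fold and 4.14-fold). Slfn5 differed more, with 490.4 against 35.6 CPM in the young and 607 against 48.0 CPM in the aged pool (13.8-fold and 12.6-fold). Ifi47, a GTPase gene almost at 0 in other neutrophil-like cells, reached the minimum in the state cells alone and is not counted. It had 100.5 against 2.18 CPM in the young and 103 against 2.34 CPM in the aged pool. Isg20 had 749.7 against 163 CPM in the young and 798 against 163 CPM in the aged pool. Ifi204 was low in the state too, with 1 and 9 UMIs over all state cells of the pools. Ifi44, a core gene, had 1 and 3 UMIs there, so neutrophil-like cells came into the state through the other core genes.

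**Figure D5:**
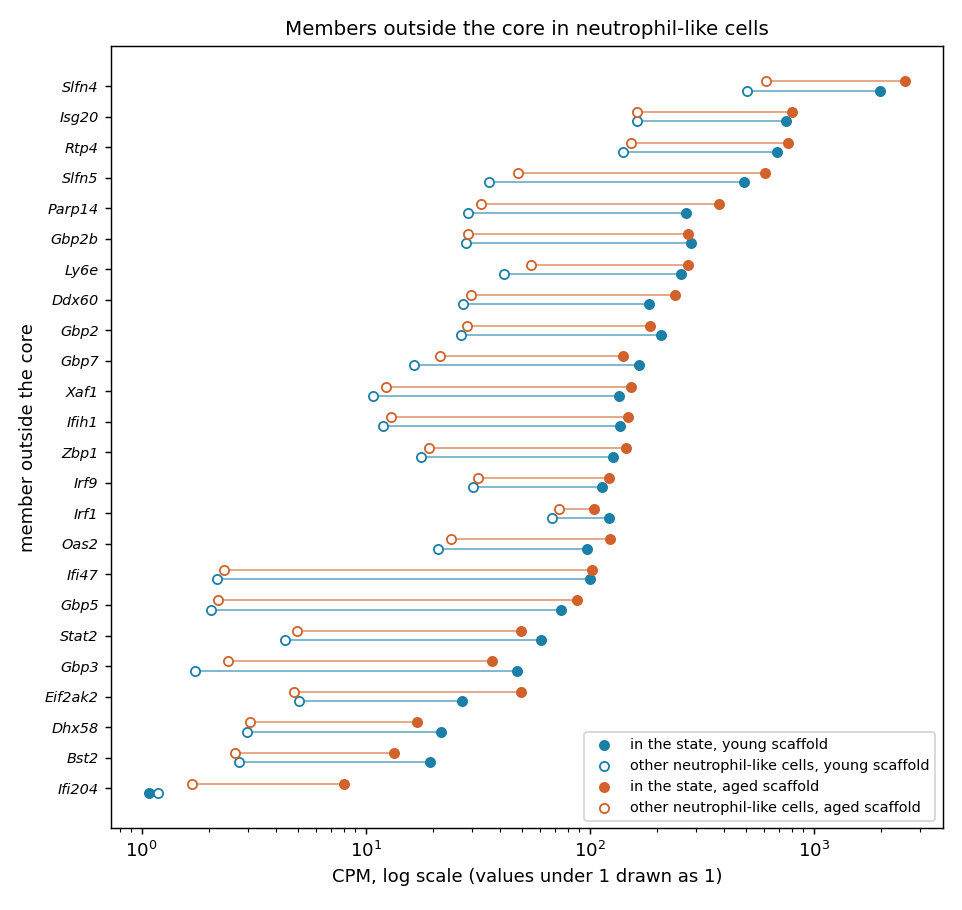
CPM (log axis, values under 1 drawn as 1) of the 24 members outside the core in neutrophil-like cells in the interferon state (filled) and other neutrophil-like cells (open), for the young and aged pools. Slfn4 is the most abundant, most members are several-fold higher in the state in both pools, Irf1 differs least among the abundant ones, and Ifi204 is low in and outside the state. All 24 are drawn, with the members that reached 20 CPM in the state cells alone.

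Members also occurred together cell by cell. Of the thinned neutrophil-like cells, 443 of the young and 578 of the aged pool had a UMI of Rsad2. A UMI was more often found in these cells than in those with no Rsad2 UMI for 37 of the 37 other members in the young and 35 in the aged pool, where Irf1 and Ifi44 were not. No share over all mouse genes is given beside these counts, so they describe these members only. Some rest on few cells, and for Ifi44 in the young pool the shares were 0.226 against 0.0345% of cells. Isg15 was found in 64.3 and 64.7% against 22.1 and 21.2% of cells, Ifit1 in 20.8 and 25.4% against 0.815 and 1.24%, and Slfn4 in 72.0 and 77.0% against 33.3 and 38.01%. A cell with no Rsad2 UMI among 1000 can still express the gene, and RNA from outside a cell, which held Isg15 at 216 and 179 CPM and Slfn4 at 368 and 439.9 CPM, can give single UMIs.

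Depth and doublet scores were close between neutrophil-like cells in the state and the others. Median UMIs were 2142 and 1995 in the state against 2080.5 and 2015, and median doublet scores 0.106 and 0.102 against 0.114 and 0.106. The 9 monocyte markers summed to 614 and 627 CPM in the state against 197 and 243 CPM. Plac8 made up 566 and 559 CPM of that sum. The monocyte receptor gene Ccr2 had 1 and 0 UMIs over all state cells, against 966 and 1041 CPM in monocyte-like cells. The 11 immature neutrophil markers summed to 2952 and 2677 CPM in the state and 4462 and 4733 CPM outside it. The part of Plac8 or of maturity in the state was not tested.

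In monocyte-like cells 21 and 19 members outside the core passed the same minimum in the young and aged pools, none having entered through the state cells alone. Of these, 19 and 18 were at least 2-fold higher in the state, where 4.3 and 3.6% of all genes that passed were. Irf9 fell short in both pools and Irf1 in the young pool. The 12 neutrophil markers summed to 9329 and 5800 CPM in these cells against 6439 and 5412 CPM in the other monocyte-like cells. The 13 macrophage markers summed to 6721 and 7232 against 4876 and 5440 CPM, the 10 NK cell markers to 77.3 and 75.8 against 18.4 and 18.5 CPM and the 9 monocyte markers to 10524 and 10572 against 6740 and 7053 CPM. The part of these genes in the state was not tested.

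The 112 other interferon-stimulated genes were read in the same cells. In neutrophil-like cells 32 and 33 passed the minimum over the class in the young and aged pools. Of these, 17 and 16 were at least 2-fold higher in the state. Of all genes that passed, 2.07 and 2.15% were, the core and these genes included. At least 2-fold lower were 0 of them, where 1.44 and 1.12% of all genes that passed were lower. The 24 and 23 that reached 20 CPM in the state cells alone are not counted. Ddx58, the RNA sensor RIG-I, had 179 against 21.8 CPM in the young and 199 against 26.6 CPM in the aged pool. The receptor genes differed little by comparison. Ifnar1 had 96.1 against 86.3 CPM in the young and 79.6 against 89.9 CPM in the aged pool, and Ifnar2 261 against 293 CPM in the young and 266 against 275 CPM in the aged pool. Ddx58, Ifnar1 and Ifnar2 were chosen here after their values were seen.

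Interferon ligands other than Ifng were nearly undetected. Of 21 ligand genes, Ifnb1, Ifnk and Ifng had at least 3 UMIs over both pools. Ifnb1, the interferon beta that most cell types can make, had 18 and 9 UMIs in all mouse cells of the young and aged pools. Macrophage-like cells held 18 and 4 of these and monocyte-like cells 0 and 5. Ifnk had 2 and 1 UMIs. Ifng, made by NK and T cells, had 58 and 222 UMIs in NK cell-like cells. There it stood at 63.6 and 153 CPM, 2.41-fold higher in the aged pool (1.79 to 3.27), detected in 25 and 69 cells. It was among the 2.21% of measured genes of this class past 1.5-fold in that direction.

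Ifngr1, the ligand-binding chain for interferon gamma, was highest in NK cell-like cells at 670.1 and 747 CPM and had 140.2 and 142 CPM in neutrophil-like cells. Jak1, the kinase shared by both receptors, had 582 and 668 CPM in NK cell-like and 314 and 328 CPM in neutrophil-like cells. Ifnar2 was highest in neutrophil-like cells at 293 and 275 CPM. None of the 11 genes of this list reached 1.5-fold between pools in any of the 6 classes, with 8 to 10 measured per class, where 0.0614 to 3.31% of measured genes did per class and direction.

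Among the 15 upstream sensors and adaptors, Irf8, a lineage factor that also drives interferon genes, had 906 and 1011 CPM in NK cell-like and 1.20 and 1.70 CPM in neutrophil-like cells. Irf5 was highest in monocyte-like cells at 131 and 135 CPM, and Tlr4, the endotoxin receptor, in neutrophil-like cells at 114 and 116 CPM. Tlr3, the endosomal double-stranded RNA receptor, was the 1 gene of this list past 1.5-fold in any class, lower in the aged pool in endothelial-like cells (51.6 and 26.9 CPM), where 7 of the list were measured and 1.96% of all measured genes were lower. Of 7 feedback inhibitors, Socs3, which blocks cytokine receptor kinases, had 656 and 656 CPM in neutrophil-like cells. Ptpn6, a phosphatase gene, was highest in monocyte-like cells at 235 and 237 CPM, and Socs1, a main brake on interferon gamma signalling, in NK cell-like cells at 83.4 and 92.4 CPM. Socs3 in endothelial-like cells was past 1.5-fold, at 245 and 377 CPM, with 3 of that list measured and 3.31% of all measured genes higher.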

How the data were processed

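Young and aged scaffold pools were compared, with 1 gene expression library each. The authors deposited raw UMI counts per gene and barcode, with GRCh38 and mm10 as references and Cell Ranger 6.0.0 as the counting tool, per the file headers and the submitters' processing notes. Mouse barcodes had at least 90% mouse gene UMIs, 500 UMIs, 300 genes and at most 20% mitochondrial UMIs. Barcodes above a Scrublet doublet score of 0.25 were removed. Cells were clustered with scanpy 1.11.5 (Leiden, resolution 1) without 150 interferon-stimulated genes. UMIs were summed per class and pool and divided by the class's mouse gene UMIs (CPM). Intervals are exact Poisson for levels, exact conditional for ratios and exact binomial for shares, at 95%. Named were the 3 most abundant members per class, each member past 1.5-fold, the most abundant of each role, both extremes of the neutrophil-like level against other classes, and up to 3 genes per pathway list. Other named members and cluster values were chosen after their values were seen. TMM scaling used edgeR 4.0.16. Members and lists were chosen with earlier results of these data known. The ratio and scaling steps were tested on simulated data. The libraries held 187438011 and 188583544 gene UMIs of both species. Antibody counts served to find cells with 1 hashing tag, which the labels tie to no animal. Alternatives are given at the end.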

Additional observations from a re-analysis of the deposited data

Results flagged for a closer look

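Some members had aged to young ratios of opposite direction in different classes, and the difference between classes was not tested. The log2 ratio of Rsad2 was 0.54 in neutrophil-like and -0.97 in monocyte-like cells, a difference of 1.51. That of Ifit1 was 0.44 and -0.87 in the same classes, a difference of 1.31. Gbp2 had 0.47 in fibroblast-like and -0.69 in monocyte-like cells, a difference of 1.16. Slfn5 had 0.71 in fibroblast-like and -0.18 in monocyte-like cells, a difference of 0.89. Within the fibroblast-like clusters 12, 13 and 17, whose shares of the class differ between pools, its ratio was 1.002-, 1.70- and 0.847-fold. Stat2 had 0.43 in fibroblast-like and -0.80 in endothelial-like cells, a difference of 1.23. Cxcl10 had 0.33 in fibroblast-like and -0.72 in endothelial-like cells, a difference of 1.05. In fibroblast-like cells the top cell held 42.9 and 21.4% of the Cxcl10 UMIs of the young and aged pools. In endothelial-like cells it held 51.7 and 74.1%. Without the top cells the log2 ratios of Cxcl10 were 0.79 and -1.62 in these classes.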

How the results depend on the processing

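No paired analysis was possible because each group has 1 gene expression library, and for the same reason none could be left out. Counts of members past the fold were 0 in neutrophil-like, 1 in fibroblast-like, 8 in monocyte-like, 0 in macrophage-like, 1 in NK cell-like and 4 in endothelial-like cells. At a ratio of 5 to 4 in place of 1.5-fold they were 7, 8, 14 and 4 in the first 4 classes and 8 in endothelial-like cells. For this and the alternatives below no share of all measured genes is given, except above for the minimum on the mean of both pools. A looser fold or no minimum lets in more of all genes too, so these counts describe the members only. With no minimum they were 3 in neutrophil-like, 3 in fibroblast-like, 2 in macrophage-like, 9 in NK cell-like and 9 in endothelial-like cells. With a minimum of 100 CPM they were 2 in monocyte-like, 0 in NK cell-like and 1 in endothelial-like cells. With every cell weighted equally they were 1 in neutrophil-like, 0 in fibroblast-like, 1 in macrophage-like and 2 in endothelial-like cells. Without the top cell of each gene they were 2 in fibroblast-like, 1 in macrophage-like and 0 in NK cell-like cells. Median-of-ratios scaling gave 2 in fibroblast-like and 1 in macrophage-like cells, and TMM scaling 1 in the latter. With the minimum on the mean of both pools there were 5 in monocyte-like cells. With doublets kept there were 5 in monocyte-like and 2 in NK cell-like cells, with 98% species purity 13 in monocyte-like cells (11 lower, 2 higher), and over cells with 1 hashing tag 3 in monocyte-like and 4 in macrophage-like cells. The median log2 ratio in neutrophil-like cells was 0.15 with TMM scaling and 0.16 at 98% purity. In fibroblast-like cells it was 0.093 with every cell weighted equally and 0.12 over cells with 1 hashing tag, and in macrophage-like cells 0.41 at 100 CPM. It changed sign in macrophage-like cells with TMM scaling (-0.000) and in NK cell-like cells with no minimum (-0.28), equal weights (-0.029) and doublets kept (-0.009). The aged minus young share of neutrophil-like cells in the state, in percentage points, was 2.00 with at least 2 core genes, 0.46 with at least 4 and 2.17 at 2000 UMIs, and that of endothelial-like cells was -5.46 without thinning. The remaining 51 differences in share, 66 medians and 46 counts were not classed as moved or reversed under the alternatives run. This does not make them equal to the reported values. Without thinning the shares were 12.7 and 9.31% in NK cell-like cells, against 2.86 and 1.63% with it. In macrophage-like cells they were 29.0 and 29.7% against 4.12 and 5.56%. The neutrophil-like difference over cells with 1 hashing tag, given above, was smaller than the reported one. Leaving out barcodes found in both libraries, the minimum on the mean of both pools and, for the shares, keeping only cells with 1 hashing tag were chosen after seeing the data. Of the log2 ratios of single members past the fold, 162 stayed past it and 14 did not, all in the same direction. These were Ifit3 (3 alternatives), Isg15 and Gbp2b in monocyte-like cells, Slfn5 in fibroblast-like cells, Cxcl10 in NK cell-like cells, and Slfn4, Ly6e, Stat2 and Cxcl10 in endothelial-like cells. The causes were not tested. Counting error limits the small classes most.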
